A study of Mus musculus with 8 samples.

Results

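The subject is a set of 8 transporter genes of the brain endothelium, chosen by gene symbol from the 31053 genes in the tables: Abcb1a, Abcg2, Abcc4 and Abcc6, which encode efflux pumps driven by ATP, Slco1a4, Slco1c1 and Slco2b1, which encode organic anion transporting polypeptides, and Slc22a8, which encodes organic anion transporter 3. All 8 were found, and all 8 passed the filter on low counts in endothelial cells. Single-cell RNA was measured in brain cortex of mice aged 8 weeks and perfused with cold saline. The groups were Lama4-/-, which lacks laminin α4 in every cell, a WT control for it, Tek-Cre:Lama5-/-, in which the laminin α5 gene is deleted by a recombinase under the Tek promoter (active in endothelium and in part of the blood lineage), and a separate WT control. Laminins are basement membrane proteins, and the study asked how those of the vessel wall bear on the zones of brain microvessels. Brains of 3 mice were pooled per group and each group has 2 deposited samples, but those of the Lama4-/- group were identical and count as 1 library, which leaves 7 libraries. Because nothing says that the libraries of a group came from separate mice, p-values measure the spread between libraries, which may be technical, and not the spread between mice.

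The blood-brain barrier is formed by capillary endothelial cells joined by tight junctions, which limits passage between cells and leaves transport across the cell to carriers and pumps. Efflux pumps of the ABC family on the side facing the blood return drugs and metabolites to it. Organic anion transporters carry hormones, steroid conjugates and many drugs in either direction across the endothelium, and their amounts differ along the vessel from artery through capillary to vein.

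The libraries held 6295 to 9556 barcodes and 35479306 to 48314458 unique molecular identifiers (UMIs, each a count of 1 captured RNA molecule), and any pair of distinct libraries shared 5 to 24 barcodes. After filtering, 47239 cells remained, of which 26438 were endothelial-like (2216 to 5026 per library, all 10 of 10 endothelial markers present). Levels are UMIs per 1000000 UMIs of the cells described (CPM), and since 1 UMI counts a transcript's 3-prime end once, gene length does not enter. In endothelial-like cells Lama4 was at 45.9 and 44.6 CPM in its WT and 0.0598 CPM in the Lama4-/- library. Lama5 was at 42.7 and 42.2 CPM in its WT and 22.6 and 24.1 CPM in the Tek-Cre:Lama5-/- libraries, and the 3-prime tags may lie outside the deleted part. The libraries also held choroid plexus-like cells, a type that cortex lacks, with 115 in the Lama4-/- library and at most 27 in any other.

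All 8 are protein-coding genes, with positions here on GRCm38. Of the pumps, Abcb1a spans chr5:8660077-8748575 on the plus strand, Abcg2 chr6:58584523-58695676 on the plus strand, Abcc4 chr14:118482692-118706219 on the minus strand and Abcc6 chr7:45967555-46030302 on the minus strand. Of the organic anion transporters, Slco1a4 spans chr6:141805440-141856199 on the minus strand, Slco1c1 chr6:141524368-141570177 on the plus strand, Slco2b1 chr7:99657804-99711340 on the minus strand and Slc22a8 chr19:8591254-8611835 on the plus strand.

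Endothelial cells gave most of the RNA of these genes. They were 54.3% of the cells on average over the 7 libraries and held 97.1% of the UMIs of Abcb1a (P-glycoprotein), 94.8% of Abcg2 (breast cancer resistance protein), 95.02% of Abcc4 (multidrug resistance protein 4), 97.1% of Abcc6 (a pump linked to ATP release and soft tissue calcification), 97.3% of Slco1a4, 93.6% of Slco1c1 and 93.9% of Slc22a8. The exception was Slco2b1, of which they held 55.4%. Together the 8 genes made up 0.530% to 0.580% of endothelial UMIs. Of 20999 genes with a UMI in these cells, Slco1a4 ranked 68th by mean CPM, Slco1c1 114th, Abcb1a 116th and Abcg2 173rd. Slc22a8 ranked 545th, Abcc4 860th and Slco2b1 1214th. Abcc6 ranked 7816th, and its level of 9.06 to 15.2 CPM per library makes its zone and group values the least precise of the set.

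Endothelial-like cells were divided into 4 zones by sub-clustering without the 8 genes, and each zone was named from fixed markers: large artery-like (Fbln5, Cytl1, Mgp, Eln), arteriole-like (Vegfc, Sema3g, Efnb2, Bmx), capillary-like (Mfsd2a, Tfrc, Slc16a1, Car4) and venous-like (Nr2f2, Slc38a5, Vwf, Vcam1). They held 1485, 3542, 14142 and 2937 cells. The thresholds for a zone were set after the data were seen, and 4332 cells stayed without one, which was 20.5% of endothelial cells in the WT of the Lama4 experiment, 21.2% in Lama4-/-, 15.2% in the WT of the Lama5 experiment and 14.5% in Tek-Cre:Lama5-/-. Fosb, Ier2 and Junb, immediate early genes of cell stress and activation, were among the leading genes of 1 capillary-like sub-cluster, Fosb also led another, Ttr and Hbb-bs (transcripts of choroid plexus and red blood cells) were among those of 1 more, and the inflammation genes Icam1, Vcam1, Cxcl1 and Nfkbiz were among those of a venous-like one. Zones are clusters of the same cells, so their levels are given as a description over the 7 libraries, with no test.

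The large arteries had the lowest level of 7 of the 8 genes, and the zone of the highest level differed between them. Slco1a4, Slco2b1, Slc22a8 and Abcc6 were highest in capillary-like cells, Abcb1a and Abcg2 in venous-like cells, and Slco1c1 and Abcc4 in arteriole-like cells. Slco1c1 alone was lowest in the venous zone. For Abcc4 the large artery and capillary means were close, the large artery was the lower in 4 of 7 libraries, and the order turned with the stricter cell filter.

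**Figure D1:**
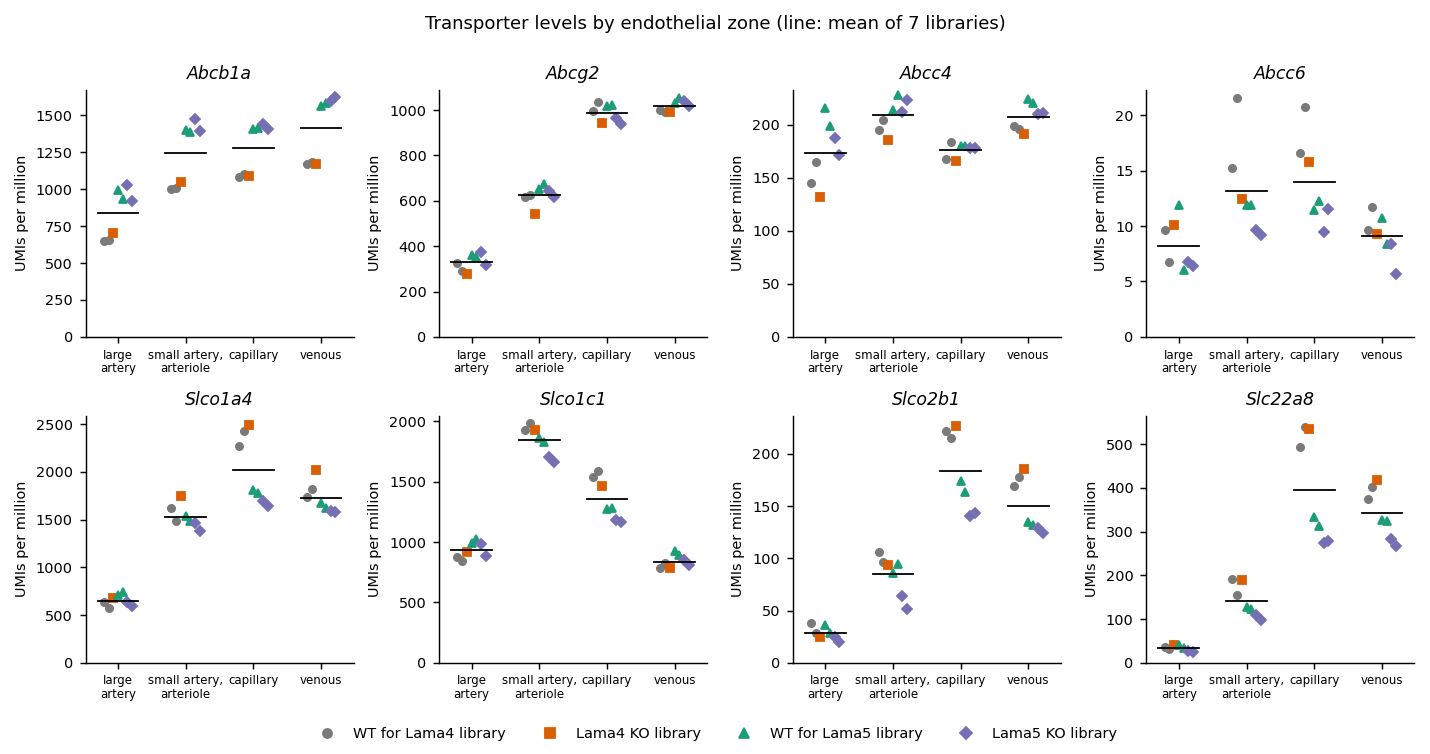
Level of each of the 8 genes (CPM, linear axes starting at 0) by endothelial zone from large artery-like to venous-like, with 1 point per library coloured by group and a line through the mean of the 7 libraries. Slc22a8, Slco2b1 and Slco1a4 climb from large artery to capillary, whereas Slco1c1 peaks in the arteriole-like zone at a mean of 1841 CPM.

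Among the organic anion transporters the span was widest for Slc22a8, the transporter of anionic drugs and neurotransmitter metabolites. It was at 23.7 to 41.6 CPM in large artery-like cells of the 7 libraries, 97.3 to 192 CPM in arteriole-like cells, 273 to 539 CPM in capillary-like cells and 267 to 418 CPM in venous-like cells. The ranges of large artery, arteriole and venous zones did not overlap, whereas capillary and venous ranges did, and the capillary level was the higher in 5 of 7 libraries. Slco2b1, a carrier of steroid sulphates and statins, followed the same order, with means of 28.7, 84.6, 184 and 150 CPM from large artery to vein. Slco1a4, which carries bile acids, steroid conjugates and digoxin, was at 569 to 739 CPM in large artery-like cells and 1375 to 1742 CPM in arteriole-like cells, ranges that lay apart. Its level was 1647 to 2493 CPM in capillary-like and 1577 to 2021 CPM in venous-like cells, and it was higher in the capillary than in the venous zone in 7 of 7 libraries although the ranges overlapped.

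Slco1c1, the carrier of thyroxine into the brain, ran the other way past the arterioles. Its level was 843 to 1029 CPM in large artery-like cells, 1661 to 1987 CPM in arteriole-like cells, 1168 to 1589 CPM in capillary-like cells and 784 to 926 CPM in venous-like cells. The arteriole, capillary and large artery ranges lay apart, whereas the large artery and venous ranges overlapped, with the large artery the higher in 7 of 7 libraries. This last order depended on the sub-clusters: at a finer resolution the large artery-like zone held fewer cells and had the lower Slco1c1 mean, 378 CPM against 766 CPM in the venous zone. Slco1c1 and Slco1a4 lie 235 kb apart on chromosome 6, and their highest zones differed.

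The promoter sequences of these 3 genes are shown because Slc22a8 had the widest span between zones. Slco1a4 and Slco1c1 were added because they lie 235 kb apart and were highest in different zones. Each run is the 250 bases before the start of the RefSeq transcript on GRCm38.p6: chr6:141856221-141856470 on the minus strand for Slco1a4, chr6:141524104-141524353 on the plus strand for Slco1c1 and chr19:8592932-8593181 on the plus strand for Slc22a8. The RefSeq start of Slc22a8 lies downstream of the gene start given above from GENCODE, so that its window falls within that gene. Capitals mark CTTTG, the core bound by TCF/LEF factors of Wnt signalling, and ATTGT, a core bound by SOX factors, on either strand.
Slco1a4: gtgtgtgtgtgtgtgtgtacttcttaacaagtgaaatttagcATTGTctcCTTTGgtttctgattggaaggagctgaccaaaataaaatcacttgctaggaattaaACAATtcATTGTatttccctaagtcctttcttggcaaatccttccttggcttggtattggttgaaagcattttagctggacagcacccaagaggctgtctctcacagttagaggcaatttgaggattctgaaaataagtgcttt
Slco1c1: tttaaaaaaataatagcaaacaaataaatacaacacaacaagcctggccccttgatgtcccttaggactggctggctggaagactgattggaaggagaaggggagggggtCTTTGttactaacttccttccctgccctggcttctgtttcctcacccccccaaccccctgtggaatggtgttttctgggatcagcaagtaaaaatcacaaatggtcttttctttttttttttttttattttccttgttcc
Slc22a8: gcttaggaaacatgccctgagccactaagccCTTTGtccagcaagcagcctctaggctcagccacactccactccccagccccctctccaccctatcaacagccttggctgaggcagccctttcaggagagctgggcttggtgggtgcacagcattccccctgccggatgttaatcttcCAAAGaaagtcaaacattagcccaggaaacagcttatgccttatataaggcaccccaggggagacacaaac
CTTTG occurred 1 time each before Slco1a4 and Slco1c1 and 2 times before Slc22a8, and ATTGT occurred 3 times before Slco1a4 alone. Of 32851 promoters of the same length, 48.6% held CTTTG and 27.7% held ATTGT on either strand. Neither AGGTCA, a nuclear receptor core (in 14.0% of promoters), nor TGTTTAC, a forkhead motif (in 3.17%), was found in the 3 windows.

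Among the efflux pumps Abcg2 had the steepest gradient. Its mean level was 328 CPM in large artery-like cells, 624 CPM in arteriole-like cells, 988 CPM in capillary-like cells and 1017 CPM in venous-like cells, a ratio of 3.01 between capillary and large artery. Large artery, arteriole and capillary ranges did not overlap, whereas the capillary and venous ranges did. Abcb1a was flatter, with means of 842, 1244, 1277 and 1413 CPM in the same order and a capillary level 1.52 times that of large arteries. It was higher in the venous than in the capillary zone in 7 of 7 libraries, by a median of 0.15 on the log2 scale. Abcc4, which exports cyclic nucleotides and nucleoside drugs, varied least: its means were 173, 209, 176 and 207 CPM, and arteriole-like cells exceeded venous-like cells in 4 of 7 libraries. Abcc6 had means of 8.24, 13.1, 14.0 and 9.11 CPM, and no neighbouring zones in that order had ranges that lay apart. The large artery levels depended on the sub-clusters. At the finer resolution the ratio of capillary to large artery was 5.04 for Abcg2, 2.21 for Abcb1a and 30.9 for Slc22a8 (11.8 at the main resolution). Abcc4 was then lower in large artery-like than in capillary-like cells in 7 of 7 libraries, with means of 127 and 176 CPM.

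Depth differed between zones, with median UMIs per cell of 2187 to 4966 in capillary-like cells and 5944 to 11261 in venous-like cells. With each cell thinned to 1000 UMIs, cells with at least 1 Slc22a8 UMI were 2.69% in the large artery-like, 13.1% in the arteriole-like, 30.7% in the capillary-like and 29.4% in the venous-like zone, against 19.6%, 50.6%, 63.7% and 84.1% before thinning. For Slco1c1 the thinned shares were 50.2%, 80.5%, 71.0% and 56.8%, in the order of its CPM except that large artery and venous changed places.

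Outside the endothelium 3 of the 8 genes had a second cell class among those with at least 50 cells in 6 or more libraries. Fibroblast-like cells, at 10 to 49 per library, fell short of that. Their Abcg2 was at 71.0 to 485 CPM per library, their Abcb1a at 231 to 404 CPM and their Slco1a4 at 15.8 to 284 CPM. In the libraries of the Lama4 experiment, with 30 to 49 of these cells each, Abcg2 was at 356 to 485 CPM. Their Slc22a8 was at 43.4 to 47.5 CPM in those libraries. In the libraries of the Lama5 experiment, with 10 to 18 of these cells each, it was at 151 to 337 CPM. The part of endothelial RNA in these levels was not tested. Slco2b1 was at 427 ± 57.1 CPM (SD, n = 7 libraries) in microglia-like cells against 138 ± 23.4 CPM in endothelial-like cells, and the microglial level was higher in every library. Microglia-like cells held 38.2% of its UMIs on average, from 20.2% to 56.2% across libraries. Perivascular macrophage-like cells, the macrophages along vessels, had 229 ± 35.5 CPM (n = 6 libraries with at least 50 cells). With cells thinned to 1000 UMIs, 35.0% of microglia-like cells had an Slco2b1 UMI (81.0% unthinned, median depths of 3031 to 7483 UMIs) against 0.324% of smooth muscle-like cells (2.27% unthinned, 3958 to 8921 UMIs), a class with little Slco2b1 of its own.

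Slc22a8 was found in pericyte-like cells, the mural cells of capillaries, at 283 ± 46.2 CPM against 278 ± 66.4 CPM in endothelial-like cells. Endothelial RNA in the pericyte-like cells was far lower: the 10 endothelial markers summed to 739 to 1102 CPM there, against 14814 to 17081 CPM in endothelial-like cells, and Slco1a4 was at 2.02% of its endothelial level. After thinning, 24.9% of pericyte-like cells had an Slc22a8 UMI (46.3% unthinned, median depths of 1955 to 2979 UMIs), against 0.156% of microglia-like cells. Within a library the pericyte level was 0.891 to 1.24 times the endothelial one and was the higher in 3 of 7 libraries.

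Slco1c1 was at 605 ± 72.4 CPM in astrocyte-like cells, 48.4% of its endothelial level of 1251 ± 71.7 CPM, whereas Abcb1a in the same cells was at 3.93% of its endothelial level. After thinning, 40.0% of astrocyte-like cells had an Slco1c1 UMI (64.8% unthinned, median depths of 1091 to 5294 UMIs), against 1.33% of smooth muscle-like cells. Choroid plexus-like cells of the Lama4-/- library had Slco1c1 at 364 CPM (95% Poisson interval 343 to 387 CPM, counting error only), Slco1a4 at 63.8 CPM and Slc22a8 at 59.6 CPM. Abcg2 was at 41.3 CPM in microglia-like cells, 41.8 CPM in pericyte-like cells and 50.8 CPM in smooth muscle-like cells, 4.92% to 6.06% of its endothelial level, while Abcb1a in those classes was at 0.498% to 1.28% of its own.

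**Figure D2:**
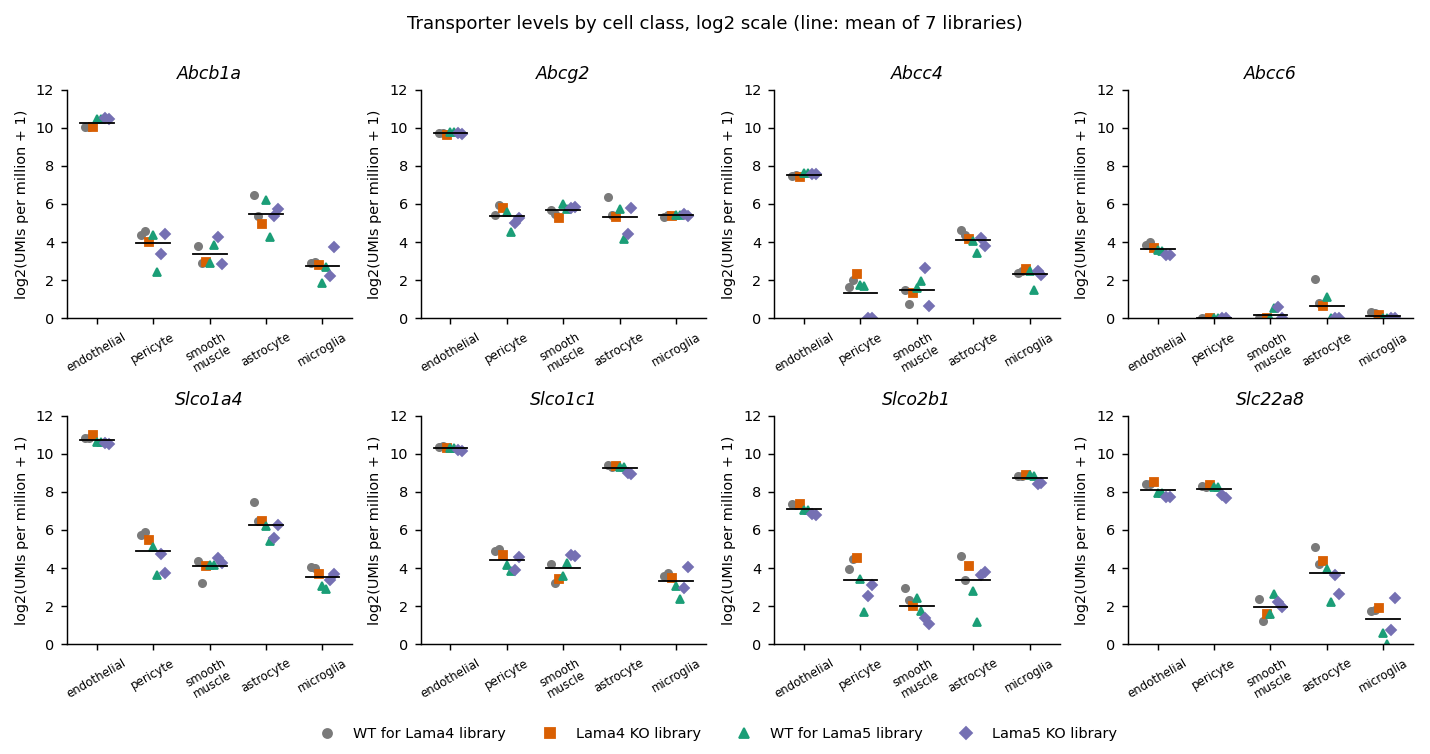
Level of each gene as log2(CPM + 1) in endothelial-like, pericyte-like, smooth muscle-like, astrocyte-like and microglia-like cells, with 1 point per library coloured by group. Slco2b1 is highest in microglia-like cells (mean 427 CPM), Slc22a8 is as high in pericyte-like (283 CPM) as in endothelial-like cells (278 CPM), and Slco1c1 stays high in astrocyte-like cells (605 CPM).

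The Tek-Cre:Lama5-/- libraries were compared with their WT for these genes. Lama4 also differed in endothelial-like cells, at 30.3 and 31.4 CPM in the WT and 49.8 and 45.9 CPM in the knockout. It rose by 0.71 (SE 0.0554, edgeR adjusted p = 3.11e-11), and its part in the results was not tested. In endothelial-like cells 4 of the 8 passed an adjusted p under 0.05 in edgeR's quasi-likelihood test, 1 of them higher and 3 lower, where 18.9% of the 13171 genes tested passed (1379 higher, 1114 lower). All of the changes were small. The median log2 change of the 8 was -0.04, and that of all genes tested was -0.00.

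Slco2b1 was at 132 and 130 CPM in the WT libraries and 112 and 107 CPM in the knockout libraries. The gene fell by 0.17 on the log2 scale (SE 0.033, edgeR adjusted p = 0.000202). Slc22a8 was at 245 and 242 CPM in the WT and 213 and 207 CPM in the knockout and fell by 0.13 (SE 0.0263, edgeR adjusted p = 0.000313). Slco1c1 was at 1272 and 1264 CPM in the WT and 1171 and 1137 CPM in the knockout and fell by 0.06 (SE 0.0189, edgeR adjusted p = 0.0321). That call was lost with DESeq2 (adjusted p = 0.193) and without knockout replicate 2 (0.282), WT replicate 1 (0.1996) or WT replicate 2 (0.122).

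Abcb1a, the best known pump of the barrier, was at 1390 and 1394 CPM in the WT and 1432 and 1389 CPM in the knockout, so that the unscaled groups overlapped. It rose by 0.10 (SE 0.0186, edgeR adjusted p = 0.00021) only relative to the scaling of the test, in which TMM factors set the median of all genes near 0. With scaling by library size, chosen after seeing the data, the median of all genes shifted to -0.08, Abcb1a had a change of 0.02 (edgeR adjusted p = 0.522), and the members called were 0 higher and 5 lower, Slco1a4 (-0.11) and Abcg2 (-0.07) among them. Under that scaling 27.2% of all genes were called, and the share of calls that were higher also moved, to 759 of 3580 genes. Slco2b1, Slc22a8 and Slco1c1 were lower under both scalings, at -0.25, -0.21 and -0.14 with library size.

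The other 4 genes did not pass the test. Slco1a4, at 1588 and 1579 CPM in the WT and 1493 and 1447 CPM in the knockout, had a change of -0.03 (edgeR adjusted p = 0.314). Abcg2 had a change of 0.01 (edgeR adjusted p = 0.851), with 862 and 887 CPM in the WT and 853 and 812 CPM in the knockout. Abcc4 had 196 CPM in both WT libraries and 191 and 189 CPM in the knockout, a change of 0.04 (edgeR adjusted p = 0.403), and its sign turned with library size scaling (-0.04). Abcc6 had 11.2 and 10.8 CPM in the WT and 9.17 and 9.06 CPM in the knockout, a change of -0.19 with an SE of 0.103 (edgeR adjusted p = 0.213). Microglial RNA in the endothelial-like cells moved with the groups: the 8 microglia markers summed to 101 and 102 CPM in the WT and 126 and 128 CPM in the knockout, and its part in these results was not tested. The zone makeup was close between the groups, with 54.8% capillary-like cells in the WT and 56.1% in the knockout.

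**Figure D3:**
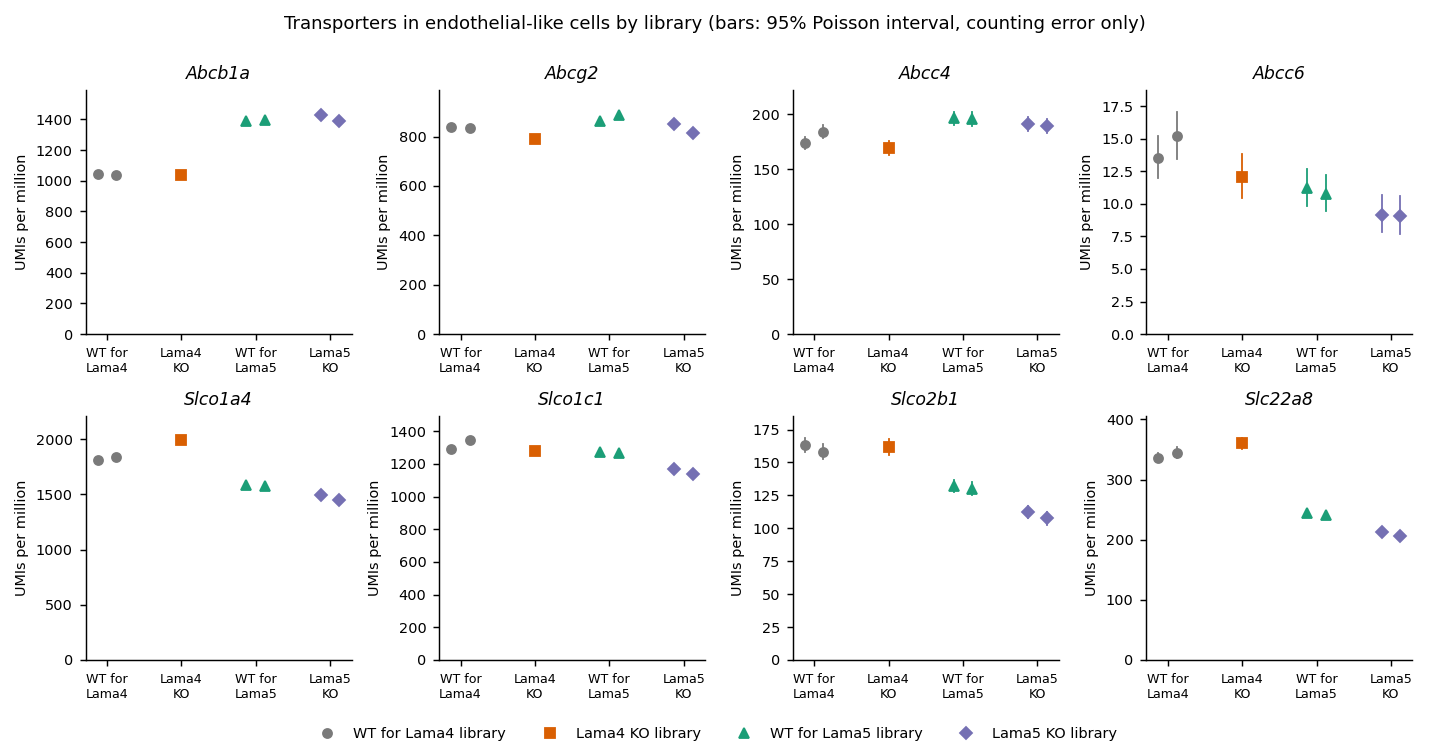
Level of each gene in endothelial-like cells (CPM, linear axes) in each of the 7 libraries, grouped by WT and knockout of each experiment, with 95% Poisson intervals that cover counting error only. Abcb1a lies at 1039 to 1041 CPM in the 3 libraries of the Lama4 experiment and at 1389 to 1432 CPM in the 4 of the Lama5 experiment.

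Within the zones of Tek-Cre:Lama5-/- the same genes were examined one zone at a time. In capillary-like cells 3 of 8 passed, against 13.4% of all genes tested: Abcb1a (0.10, edgeR adjusted p = 2.81e-05), Slc22a8 (-0.14, 0.000438) and Slco2b1 (-0.16, 0.00333). Abcb1a there was at 1408 and 1412 CPM in the WT and 1440 and 1406 CPM in the knockout, which overlapped. With library size scaling its call was lost in the capillary (edgeR adjusted p = 0.735), arteriole (0.599) and venous zones (0.554), and the members called were 0 higher and 5, 3 and 2 lower. Under that scaling 18.8%, 5.78% and 10.7% of all genes were called in these zones. Most of those calls were lower: 1763 of 2200, 499 of 600 and 751 of 1152. Slc22a8 in capillary-like cells was at 333 and 313 CPM in the WT and 273 and 278 CPM in the knockout, and Slco2b1 at 174 and 163 CPM against 141 and 144 CPM. Both calls were lost with DESeq2 (adjusted p = 0.159 and 0.274) and without either knockout replicate 1 or WT replicate 1 (Slc22a8 edgeR adjusted p = 0.107 and 0.149, Slco2b1 0.155 and 0.1997).

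The largest called change of any of the 8 in any endothelial zone was that of Slco2b1 in arteriole-like cells. It was at 86.2 and 94.5 CPM in the WT and 64.3 and 51.1 CPM in the knockout and fell by 0.55 (SE 0.100, edgeR adjusted p = 1.23e-05), where 4.36% of genes passed. The call held in edgeR without each of the 4 libraries (-0.73 to -0.42), and DESeq2 gave a change of -0.57 and no adjusted p. In venous-like cells the same gene was at 135 and 132 CPM in the WT and 129 and 124 CPM in the knockout, a change of -0.01 (SE 0.0645, edgeR adjusted p = 0.972). The difference itself was tested after it had been seen, in a fit over the 4 zones with a library term. Slco2b1 was the 1 gene of the 8 whose Lama5 effect differed between zones (edgeR adjusted p = 0.02755, 0.995% of genes), and its change in arterioles minus that in the venous zone was -0.54 (SE 0.122, edgeR adjusted p = 0.011, 0.375% of genes). That difference was not called in edgeR without knockout replicate 2 (-0.42, adjusted p = 0.406) or WT replicate 2 (-0.48, 0.178). The test over all zones was lost without those and also without knockout replicate 1 (adjusted p = 0.602, 0.257 and 0.0518). Microglia marker sums, beside Slco2b1, were 97.6 and 103 CPM (WT) and 126 and 124 CPM (knockout) in arteriole-like cells and 66.9 and 61.8 CPM against 62.9 and 66.7 CPM in venous-like cells, and their part was not tested.

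In arteriole-like cells Abcb1a was the other of 2 genes that passed in edgeR, and it was not called by DESeq2 (adjusted p = 0.0919) or at the finer sub-clustering (edgeR adjusted p = 0.101), where Slc22a8 was called instead (-0.29, edgeR adjusted p = 0.011). The edgeR change was small (0.12, edgeR adjusted p = 0.0293), with 1403 and 1384 CPM in the WT and 1475 and 1393 CPM in the knockout, which overlapped. In venous-like cells 2 of 8 passed in edgeR (with DESeq2, 0 of the 7 given an adjusted p), against 9.35% of genes: Abcb1a (0.10, edgeR adjusted p = 0.0191), at 1563 and 1582 CPM against 1596 and 1625 CPM, and Slc22a8 (-0.17, 0.0066), at 326 and 324 CPM against 284 and 267 CPM. In each of the 2 zones the Abcb1a call was lost in 3 of the 4 fits that left out a library. The venous Slc22a8 call was lost without knockout replicate 2 (edgeR adjusted p = 0.131), WT replicate 1 (0.0537) or WT replicate 2 (0.0511). In large artery-like cells 0 of 8 passed in edgeR, against 3.16% of genes, and DESeq2 called 0 of the 4 it gave an adjusted p. In edgeR 3 of the 8 had an unadjusted p under 0.05, as did 1255 of the 9012 genes tested. The 3 members were Slc22a8 (-0.51, SE 0.203), Slco1a4 (-0.16, SE 0.0607) and Slco2b1 (-0.48, SE 0.219).

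**Figure D4:**
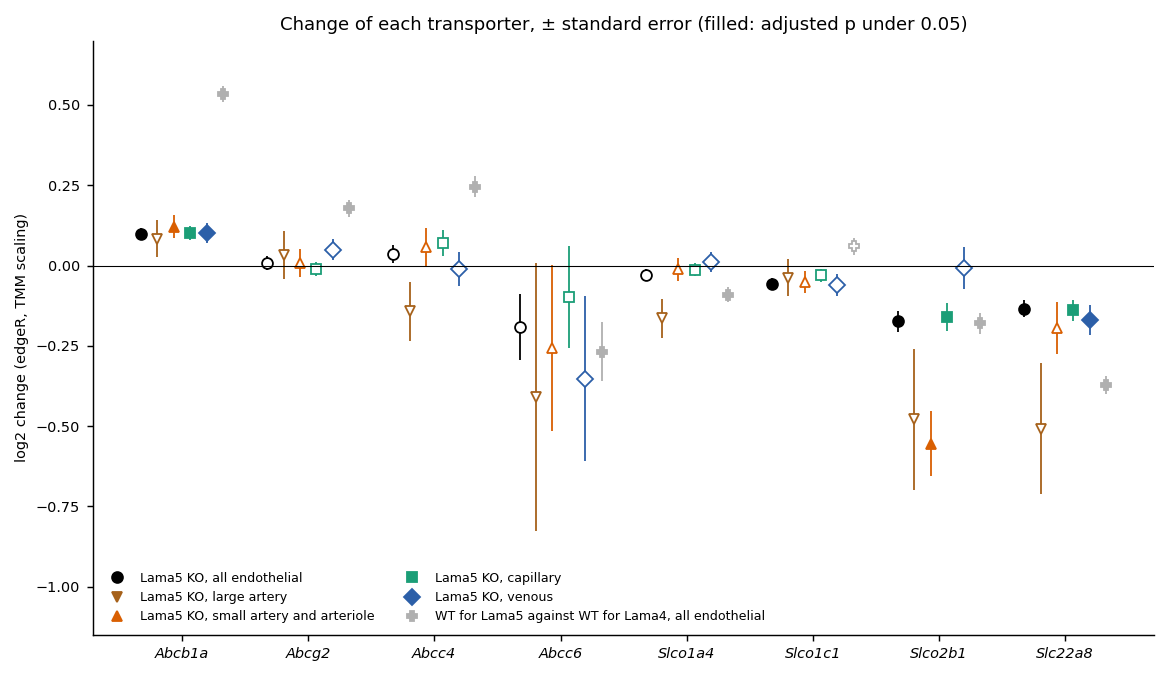
Log2 change (point) and standard error (bar) of each gene in Tek-Cre:Lama5-/- against WT for all endothelial-like cells and each zone, and between the WT pools, with filled points at an adjusted p under 0.05. Slco2b1 reaches -0.55 in the arteriole-like zone and -0.01 in the venous-like zone, and Abcb1a differs by 0.53 between the WT pools.

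Slco2b1 was also lower in the microglia-like cells of Tek-Cre:Lama5-/-. It was at 465 and 455 CPM in the WT and 340 and 348 CPM in the knockout and fell by 0.34 (SE 0.054, edgeR adjusted p = 5.16e-05). It was the 1 gene called of the 6 tested in microglia, where 12.7% of genes passed, and it stayed called with DESeq2 (adjusted p = 0.00124) and without each library. Without knockout replicate 1 the edgeR changes of Abcb1a and Slco1c1 were 1.75 and 1.497, genes at 6.20 and 9.65 CPM in these cells on average. The WT libraries held 486 and 450 microglia-like cells, the knockout libraries 892 and 834, and the 8 microglia markers summed to 20377 and 20553 CPM in the WT and 17729 and 17424 CPM in the knockout. Endothelial markers in these cells summed to 79.3 and 74.2 CPM in the WT and 79.5 and 150 CPM in the knockout, and their part was not tested.

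The second sites of Slc22a8 and Slco1c1 did not pass. In pericyte-like cells 0 of 3 members tested were called in edgeR (0.308% of genes) and 0 in DESeq2. An unadjusted edgeR p under 0.05 was found for 561 of the 6174 genes tested and for 1 member. That was Slc22a8, with 301 and 298 CPM in the WT and 230 and 204 CPM in the knockout, a change of -0.41 with an SE of 0.153 (edgeR adjusted p = 0.397). In astrocyte-like cells 0 of 4 were called by edgeR (0.27% of genes), and DESeq2 did not call the 1 it gave an adjusted p (Slco1c1). Again 1 member had an unadjusted edgeR p under 0.05, as did 889 of the 7780 genes tested. Slco1c1 there was at 625 and 641 CPM in the WT and 511 and 495 CPM in the knockout, a change of -0.33 (SE 0.113, edgeR adjusted p = 0.288). In smooth muscle-like cells 0 of 4 were called by edgeR (5.2% of genes), and DESeq2 gave none of them an adjusted p. Of the 9591 genes tested 1670 had an unadjusted edgeR p under 0.05, 1 member among them. That member, Slco1c1, at 10.8 and 18.3 CPM in the WT and 24.5 and 23.7 CPM in the knockout, had a change of 0.82 (SE 0.248, edgeR adjusted p = 0.0559). It was called without WT replicate 2 (1.249, edgeR adjusted p = 0.00401). Endothelial markers in the smooth muscle-like cells summed to 399 and 470 CPM in the WT and 515 and 365 CPM in the knockout, and their part was not tested.

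Genes that share the work of these transporters were read from the same fit, from 4 lists. In that fit 18.9% of all genes were called. Of 10 other efflux transporters 7 were tested, and 1 was higher and 3 lower. Abcb1b, which encodes the second mouse P-glycoprotein and lies 49.6 kb from Abcb1a, was at 2.53 and 1.82 CPM in the WT and 5.13 and 4.24 CPM in the knockout, a rise of 1.18 (SE 0.197, edgeR adjusted p = 3.92e-05). The 2 genes are close copies, and reads could be split between them. The lipid exporters Abca2 (-0.39), Abca1 (-0.38) and Abcg1 (-0.32) fell, and with DESeq2 only Abca1 of these did (1 higher and 1 lower in the list). Of 15 other organic anion and cation transporters 7 were tested and 0 called by edgeR or DESeq2. Of these 0 had an unadjusted p under 0.05, against 3998 of the 13171 genes tested in edgeR. The close relatives Slco1a5 and Slco1a6 of Slco1a4 were not among those tested, and their reads could be shared with it.

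For thyroid hormone entry and conversion 8 of 10 genes were tested, and 3 fell with edgeR, with DESeq2 and with library size scaling. Among them were Slc7a5 (-0.28), a subunit of the large neutral amino acid transporter, and Thra (-0.17), a thyroid hormone receptor. Slc7a5 was at 614 and 628 CPM in the WT and 491 and 476 CPM in the knockout. Of 17 regulators 15 were tested, and 2 were higher, Nfe2l2 (0.27), a factor of the oxidative stress response, and Lef1 (0.07), a factor of Wnt signalling. Among the 4 that were lower were Foxq1 (-0.15), a forkhead transcription factor of brain endothelium, Nr3c1 (-0.11), the glucocorticoid receptor, and Ctnnb1 (-0.11), β-catenin. With DESeq2 1 regulator was higher and 3 were lower, and the calls of Lef1 (adjusted p = 0.330) and Nr3c1 (0.0738) were lost. With library size scaling 1 was higher and 6 were lower, and Lef1 was at -0.01 and no longer called. The median log2 change was -0.13, 0.05, -0.11 and -0.09 in the 4 lists in the order given, against -0.00 over all genes tested.

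The Lama4-/- group has 1 library, so it was compared with its WT without a test. In endothelial-like cells 0 of 8 genes differed by more than 1.5-fold from the WT mean, as did 1.15% of the 9639 genes at 5 CPM or more, and 6 of 8 lay outside the range of the 2 WT libraries, as did 80.8% of those genes. Slco1a4 was at 1810 and 1839 CPM in the WT and 1991 CPM in the knockout, a log2 ratio of 0.13 (95% Poisson interval 0.11 to 0.14). Slc22a8 was at 337 and 345 CPM and 360 CPM, a ratio of 0.08 (0.04 to 0.12). Both lay above their WT range, and Slco1a4 did so in all 4 zones. Abcg2 was at 838 and 834 CPM in the WT and 788 CPM in the knockout (-0.09, -0.11 to -0.06). It was below the WT range in all 4 zones, but in venous-like cells the gap was within counting error. There it was at 989.4 CPM (95% Poisson interval 960 to 1020 CPM) against 999.1 and 989.7 CPM in the WT. The share of all genes outside the WT range in all 4 zones is not given here. In endothelial-like cells as a whole Abcc4 (-0.08), Slco1c1 (-0.04) and Abcc6 (-0.25, -0.45 to -0.05) were also below their WT range. Abcb1a, at 1041 and 1039 CPM in the WT and 1040 CPM in the knockout, had a ratio of 0.00 (-0.02 to 0.02). Slco2b1, at 163 and 158 CPM and 162 CPM, had a ratio of 0.01 (-0.04 to 0.07). In microglia-like cells Slco2b1 was at 453 and 447 CPM in the WT and 477 CPM in the knockout.

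Between the WT pools of the 2 experiments Abcb1a, Slc22a8 and Abcc4 differed by more, in log2, than in either knockout against its WT. By smaller margins this also held for Slco2b1 and Abcc6, and for Abcg2 with TMM scaling only. The Lama4-/- values are ratios of unscaled CPM, whereas the others are changes with TMM scaling, and the comparison was not tested as such. With library size scaling the Abcg2 difference between the pools (0.07) was smaller in size than its Lama4-/- ratio (-0.09). Comparing the WT of the Lama5 experiment with that of the Lama4 experiment in endothelial-like cells, 7 of 8 genes passed in edgeR, as did 55.8% of the 13286 genes tested. Abcb1a was at 1041 and 1039 CPM in the WT of the Lama4 experiment and 1390 and 1394 CPM in the other, 0.53 higher (SE 0.0241, adjusted p = 3.95e-10). Slc22a8 went from 337 and 345 CPM to 245 and 242 CPM, a difference of -0.37 (SE 0.0282, adjusted p = 9.48e-08). Abcc4 (0.25) and Abcg2 (0.18) were higher, and Slco2b1 (-0.18), Abcc6 (-0.27) and Slco1a4 (-0.09) were lower. Slco1c1 did not pass (0.06, edgeR adjusted p = 0.0626), and the Abcc6 call was lost with DESeq2 (adjusted p = 0.186). With library size scaling, which shifted the median of all genes to -0.11, Abcg2 no longer passed (0.07, adjusted p = 0.0509). Experiment and pool of mice cannot be told apart, and the zone makeup differed, with 48.0% capillary-like cells in the WT of the Lama4 experiment and 54.8% in that of the Lama5 experiment. Within capillary-like cells alone the difference was still seen, with Abcb1a at 1082 and 1100 CPM against 1408 and 1412 CPM and Slc22a8 at 492 and 539 CPM against 333 and 313 CPM.

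The genes whose profile was most like each of the 8 in shape were found by Pearson's r of log2(CPM + 1) over 8 profiles. These were the 4 zones and pericyte-like, smooth muscle-like, astrocyte-like and microglia-like cells. They share libraries and depth, so that r is a description only. It does not compare the size of the span: Wdr48, named below, ran from 23.0 to 41.8 CPM and Slc22a8 from 1.85 to 395 CPM. The nearest to Abcb1a was Cldn5, the claudin of the barrier's tight junctions (r = 0.9987), and the nearest to Abcc4 was Slc2a1, the glucose carrier of the barrier (0.9963). Slco1a4 was nearest to Zfp366 (0.9963), Slco1c1 to Mcc (0.9959), Abcc6 to Mylpf (0.9989), Abcg2 to Col4a3bp (0.9917), Slco2b1 to Gm26778 (0.9907) and Slc22a8 to Wdr48 (0.9890). Among the 8 genes themselves Slco1a4 and Abcb1a were the most alike (0.9946), and Slc22a8 and Slco2b1 the least (0.2135).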

How the data were processed

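Single-cell RNA libraries (Chromium 3-prime v3 chemistry, polyA RNA) were made from digested brain tissue of 4 groups, 3 mice pooled in each. The deposited matrices hold UMI counts for each gene in each cell, not normalized. Cell Ranger, Seurat 3.1 and the mm10 build are named in the submitters' processing notes, and per the file headers the counting software had version 3.1.0. Aligner settings are not given in the sources used here. Reads that fit close copies (Abcb1a and Abcb1b, or Slco1a4, Slco1a5 and Slco1a6) may be split or lost.

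From the counts, cells with at least 500 genes and under 15% mitochondrial UMIs were kept, and 3015 doublets were removed by a caller of simulated doublets set to 0.8% per 1000 cells. Clustering used 2000 variable genes, 30 components, 15 neighbours and Leiden resolution 1, without the 8 genes, their pathway lists, Lama4, Lama5, sex-linked and mitochondrial genes. Names came from fixed markers, and rebuilt names may differ from the study's. UMIs were summed per library and cell class or zone. Tests used edgeR 4.0.16 (quasi-likelihood, TMM, filter on low counts, all genes, Benjamini-Hochberg) and DESeq2 1.42.0 as an alternative, in R 4.3.3, and were checked on simulated data. Clustering and summaries used Python 3.11.15 with scikit-learn 1.9.0 and igraph 0.11.9. Intervals are exact Poisson at 95% and cover counting error only. The Lama4-/- library held 2426 endothelial-like cells, and 202 UMIs or more stood behind each member in them.

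Named were all 8 genes, the called genes of 4 pathway lists with the 6 largest changes per list (some are not reported here), and the genes of most alike profile (20 CPM or more). The members and lists were chosen with earlier results of these data known. Alternatives were other scalings, no filter on low counts, a stricter cell filter, doublets kept, finer clustering, a replicate block and leaving out each library. Promoters came from RefSeq (GRCm38.p6), where 7 of 8 genes matched. Gene distances are from GENCODE release M21 on GRCm38.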

Additional observations from a re-analysis of the deposited data

Results flagged for a closer look

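Slco1a4 in endothelial-like cells lay above both WT libraries in Lama4-/- (1991 CPM against 1810 and 1839 CPM) and below both in Tek-Cre:Lama5-/- (1493 and 1447 CPM against 1588 and 1579 CPM). Slc22a8 did the same, at 360 CPM in Lama4-/- against 337 and 345 CPM, and at 213 and 207 CPM in Tek-Cre:Lama5-/- against 245 and 242 CPM. The knockouts lay on opposite sides of their own WT, and the difference between them was not tested. In Tek-Cre:Lama5-/- the edgeR change of Slco1a4 did not pass, whereas that of Slc22a8 did. These CPM are unscaled, and with library size scaling the median log2 change of all genes in Tek-Cre:Lama5-/- was -0.08. In Lama4-/- 80.8% of genes at 5 CPM or more lay outside the range of the WT libraries. For Slco2b1 the change in Tek-Cre:Lama5-/- differed between endothelial zones, with the arteriole-like change minus the venous-like change at -0.54 on the log2 scale (edgeR adjusted p = 0.011). This was tested after it had been seen, and it was not called without knockout replicate 2 (adjusted p = 0.406) or WT replicate 2 (0.178).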

How the results depend on the processing

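With DESeq2 the genes called fell to 976 in endothelial-like, 441 in microglia-like, 5 in pericyte-like and 171 in smooth muscle-like cells, to 476, 117, 142 and 285 in the capillary, large artery, arteriole and venous zones, and to 4871 between the WT pools. DESeq2 called 1 of the 8 in the capillary (4.06% of genes), 0 in the arteriole zone (no adjusted p for Slco2b1) and 0 in the venous zone. With library size scaling, chosen after seeing the data, 5 of the 8 were called in the capillary zone (18.8% of genes). In the large artery zone 1 was called (2.66% of genes), and all of these were lower. The sign then turned for Abcc4 (-0.0425) and Abcg2 (-0.0709) in Tek-Cre:Lama5-/- and for Slco1c1 between the WT pools (-0.0535). Without a filter on low counts Abcg2 was at -0.0072. Finer sub-clustering gave 20 genes called in the large artery zone and 1 of the 8 called in the venous zone (Slc22a8, lower, 8.31% of genes). In the arteriole zone 2 were lower and 0 higher (Slc22a8 and Slco2b1, without Abcb1a, 6.07% of genes). At that resolution 1 of the 8 was highest in arterioles and 0 were lowest in the venous zone. The stricter cell filter put 1 gene, Abcc4, lowest in capillaries.

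Leaving out single libraries gave 1402 to 1990 genes and 3 to 4 of the 8 called in endothelial-like cells, the gene count being lowest without WT replicate 2 or WT replicate 1 (1465) of the Lama5 experiment. In the other classes the ranges were 866 to 1028 genes and 1 to 3 members (microglia), 24 to 35 genes (pericytes), 311 to 481 genes and 0 to 1 member (smooth muscle) and 0 to 47 genes (astrocytes). In the zones they were 927 to 1161 genes and 1 to 3 members (capillary), 146 to 209 genes (large artery), 236 to 303 genes and 1 to 2 members (arteriole), and 533 to 715 genes and 0 to 2 members (venous). Between the WT pools they were 6286 to 7119 genes and 6 to 7 members. Abcg2 ranged from -0.0245 to 0.0356 in endothelial-like cells, Slco2b1 from -0.028 to 0.00749 in the venous zone, and its arteriole minus venous change from -0.70 to -0.42.

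Replicate numbers are only sample numbers: same-numbered samples did not deviate together (correlations of -0.008 and -0.028). With the replicate block 2203 genes and 4 of the 8 were called in endothelial-like cells, 4 genes in astrocyte-like cells, 7 genes in pericyte-like cells and 1 of the 8 in smooth muscle-like cells (Slco1c1, 0.82, edgeR adjusted p = 0.0425), and no other call of the 8 changed. The causes of these shifts were not tested. Depth limits Abcc6, and classes of few cells, most.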

Other observations

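Within zones the 8 genes varied between sub-clusters, given here as the mean and range over libraries with at least 20 cells of each, with no test. Among large artery-like cells Slco1c1 was at 1316 CPM (1114 to 1549, 7 libraries) in the cells led by Gkn3, Egfl8 and Mgp, 577 CPM (328 to 783, 7 libraries) in those led by S100a6 and Pi16, and 304 CPM (220 to 484, 6 libraries) in those led by Cytl1 and Fbln5. Slc22a8 followed the same order of means, at 50.2, 19.7 and 10.1 CPM. Among venous-like cells Slco1c1 was at 1082 CPM (1033 to 1135, 7 libraries) in the cells led by Wnt5a and Slc38a5, 748 CPM (530 to 856, 6 libraries) in those led by Icam1 and Il1r1, and 238 CPM (212 to 252, 3 libraries) in those led by Lcn2, Lrg1 and Ackr1. Slco2b1 was at 148, 151 and 199 CPM in the same 3. Over the 6 capillary-like sub-clusters the mean of Slco1a4 was lowest, at 1635 CPM (1386 to 1923, 7 libraries), in the cells led by Fosb, Sertad1 and Ier2, and highest, at 2516 CPM (1741 to 2988, 4 libraries), in the one with Ttr and Hbb-bs among its leading genes, and these ranges overlapped.

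A sub-cluster of 27 cells from 5 libraries, named to no zone and picked after its values were seen, had Plvap, which encodes the diaphragm protein of fenestrated endothelium, at 2777 CPM against 1.04 CPM in the other 26411 endothelial-like cells. Cldn5 was at 28.8 CPM against 5523 CPM. In these cells Abcb1a was at 120 CPM (29 UMIs), Abcg2 at 210 CPM (51 UMIs), Slco1a4 at 45.3 CPM (11 UMIs) and Slco1c1 at 8.24 CPM (2 UMIs). Slc22a8 and Abcc6 had 0 UMIs, which in so few cells does not exclude a low level. Slco2b1 was at 157 CPM (38 UMIs) and Abcc4 at 90.7 CPM (22 UMIs). No library held 20 of the cells, so no level per library is given.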
